A study of Mus musculus with 2 samples.

Results

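Intergenic peaks that lie 10 to 50 kb from genes made up 361 of the 2958 peaks on chromosomes 1 to 19 (12.2%, Wilson 95% interval 11.1 to 13.4%) in a chromatin immunoprecipitation and sequencing (ChIP-seq) study of muscle stem cells. A peak belonged to this set when its summit, the base with the most fragments, lay inside no protein-coding gene of GRCm38 and was more than 10000 and at most 50000 bp from the nearest end of one. The whole list held 2977 regions. The cells were sorted by flow cytometry from untreated C57BL/6 mice of the genotype Pax7-YFP KI, a knock-in of yellow fluorescent protein at Pax7. An anti-GFP antibody (green fluorescent protein) gave 1 ChIP library, which was set against 1 library of input DNA from cells of the same genotype. Both groups therefore carry the tag, no ChIP from untagged cells was analysed here, and neither the number nor the age of the mice was given in the sources used here. The study asked which genes Pax7 binds near in these cells. After filtering the ChIP library held 10622111 tags and the input 20429667, without a replicate of either, so the spread among libraries is unknown and no test was run. A peak list holds no expression values, so the cell type in the labels could not be checked against its markers.

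PAX7 is a transcription factor with a paired domain and a homeodomain, which bind different DNA sequences, and its presence is the usual mark of the stem cells that reside in skeletal muscle. Distal enhancers lie in introns or between genes and can act on a promoter over long distances, skipping nearer genes. The nearest gene is therefore a label for the position of a peak and not a measured target. The pileup counts the ChIP fragments that cover the summit, and the fold enrichment is the pileup plus 1 over the local input background plus 1, both from the authors' peak caller. Intervals given with a fold are exact 95% Poisson intervals for the pileup, taken over an unchanged background, and they cover counting error only.

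A genome sequence was not at hand, so sequence could be read only where a peak met a RefSeq promoter window of GRCm38.p6, which spans 250 bases before to 50 bases after an annotated start. Of the 361 intergenic peaks, 12 overlapped such a window and 9 had their summit in one (2.49%, Wilson interval 1.32 to 4.67%). The same share for other peaks or for territory is not given here. All 9 windows belonged to long noncoding RNA (lncRNA) genes. The rule keeps summits away from protein-coding genes, so no window of such a gene could hold one. The summits lay at most 162 bp from the annotated start, and the window itself allows at most 250. The stretch shared by peak and window is printed for 5 of the 9 windows. These are the window of the strongest peak and those whose peak held a motif match other than an E-box. These windows, the orientation of peaks and the noncoding density below were described after the tables were seen. Sequences run 5′ to 3′ on the strand of the lncRNA, and capitals mark every match to a searched motif. The positions are chr6:47943066-47943224 (plus strand) for Zfp783, chr5:52216456-52216683 (minus) for C130083M11Rik, chr12:86833714-86834013 (minus) for Gm40491, chr15:102746949-102747126 (minus) for Cistr and chr5:100429555-100429773 (minus) for 5430416N02Rik.
Zfp783: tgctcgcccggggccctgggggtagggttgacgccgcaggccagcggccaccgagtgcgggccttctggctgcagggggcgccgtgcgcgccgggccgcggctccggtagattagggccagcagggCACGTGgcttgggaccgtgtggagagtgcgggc
C130083M11Rik: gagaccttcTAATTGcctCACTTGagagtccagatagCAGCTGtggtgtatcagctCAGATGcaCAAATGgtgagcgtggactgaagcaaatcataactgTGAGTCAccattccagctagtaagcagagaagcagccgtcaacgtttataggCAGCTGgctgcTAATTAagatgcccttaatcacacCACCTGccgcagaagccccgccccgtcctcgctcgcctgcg
Gm40491: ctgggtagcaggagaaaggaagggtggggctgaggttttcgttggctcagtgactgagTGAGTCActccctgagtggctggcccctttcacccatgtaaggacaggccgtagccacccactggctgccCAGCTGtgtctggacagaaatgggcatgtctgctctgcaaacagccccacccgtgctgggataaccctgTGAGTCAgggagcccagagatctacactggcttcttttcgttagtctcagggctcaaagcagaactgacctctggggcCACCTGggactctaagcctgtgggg
Cistr: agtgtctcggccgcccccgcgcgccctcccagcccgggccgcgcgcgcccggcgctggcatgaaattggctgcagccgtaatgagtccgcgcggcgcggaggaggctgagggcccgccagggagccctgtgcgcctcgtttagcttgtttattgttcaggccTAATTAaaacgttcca
5430416N02Rik: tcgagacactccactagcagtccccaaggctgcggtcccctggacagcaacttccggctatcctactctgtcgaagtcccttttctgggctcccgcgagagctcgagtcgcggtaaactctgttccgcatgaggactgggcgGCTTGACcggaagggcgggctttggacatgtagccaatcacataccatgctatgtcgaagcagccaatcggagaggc

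The motifs searched on both strands were the homeodomain cores TAATTA and TAATTG, the homeodomain pairs (TAAT and ATTA separated by 2 or 3 bases), the E-box CANNTG, the AP-1 site TGANTCA and the paired-domain core GTCANGC. Shares refer to whole windows of 300 bases, and for comparison to all 32851 promoter windows. These include windows of protein-coding genes, whereas the 9 are all of lncRNA genes. Shares over windows of noncoding genes alone are not given here. A TAATTA stood in 2 of the 9 windows (C130083M11Rik and Cistr), against 5.29% of all windows, and a TAATTG in 1 (C130083M11Rik), against 8.0%. TGANTCA stood in 3 windows, against 7.81%, GTCANGC in 1, against 10.7%, and CANNTG in 6, against 72.3%. In the window of Gm36495 the TGANTCA lay outside the peak. Neither homeodomain pair was found in these 9 windows, and in all windows the pair with 2 bases between stood in 0.390% and that with 3 in 0.487%. The peak in the C130083M11Rik window held both homeodomain cores, centred 76 and 78 bp from its summit, and a TGANTCA centred 15 bp from it. The GTCANGC of 5430416N02Rik was centred 1 bp from its summit, a CANNTG of Gm40491 2 bp away, and a CANNTG of Gm2885, whose sequence is not printed, at its summit. Inside these peaks no match overlapped one of another motif. A match is a description of letters and not a site. With 9 windows these counts are a description of single sequences. These 9 peaks had folds from 5.86 (3.38 to 9.57) at 5430416N02Rik to 9.61 (5.90 to 14.9) at Zfp783.

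The intergenic band from 10 to 50 kb was occupied about as densely as gene bodies at the same distance, and more densely than the intergenic space beyond it. It covered 344.8 Mb of the autosomes, 14.4% of their annotated length, and held 1.05 peaks per Mb (0.942 to 1.16). Intergenic territory beyond 50 kb held 0.540 per Mb (0.492 to 0.592), so the density of the band was 1.94 times as high and the Poisson intervals did not overlap. Inside genes at 10 to 50 kb from the ends the density was 1.14 per Mb (1.03 to 1.25), and these 2 intervals overlapped. Territory within 1000 bp of a gene end stood far above both, at 11.6 per Mb (10.8 to 12.4). Territory was counted from the gene table without regard to assembly gaps or mappability, and the part of these in the differences was not tested. When all annotated genes took the place of protein-coding genes in the rule, the density of the band fell to 0.592 times that of all peaks, against 0.850 times with protein-coding genes.

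Within the band, density showed no steady fall with distance. From 10 to 15 kb there were 82 peaks at 1.12 per Mb (0.890 to 1.39), from 15 to 20 kb 63 at 1.07 (0.826 to 1.38), and from 20 to 30 kb 95 at 1.06 (0.857 to 1.29). The 76 peaks from 30 to 40 kb gave 1.11 per Mb (0.876 to 1.39), and the 45 peaks from 40 to 50 kb gave 0.821 (0.599 to 1.10). The last interval overlapped all the others, and each of the 5 bins lay above the 0.540 per Mb of the space beyond 50 kb. The median distance was 23609 bp, with quartiles of 15606 and 33199 bp.

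**Figure D1:**
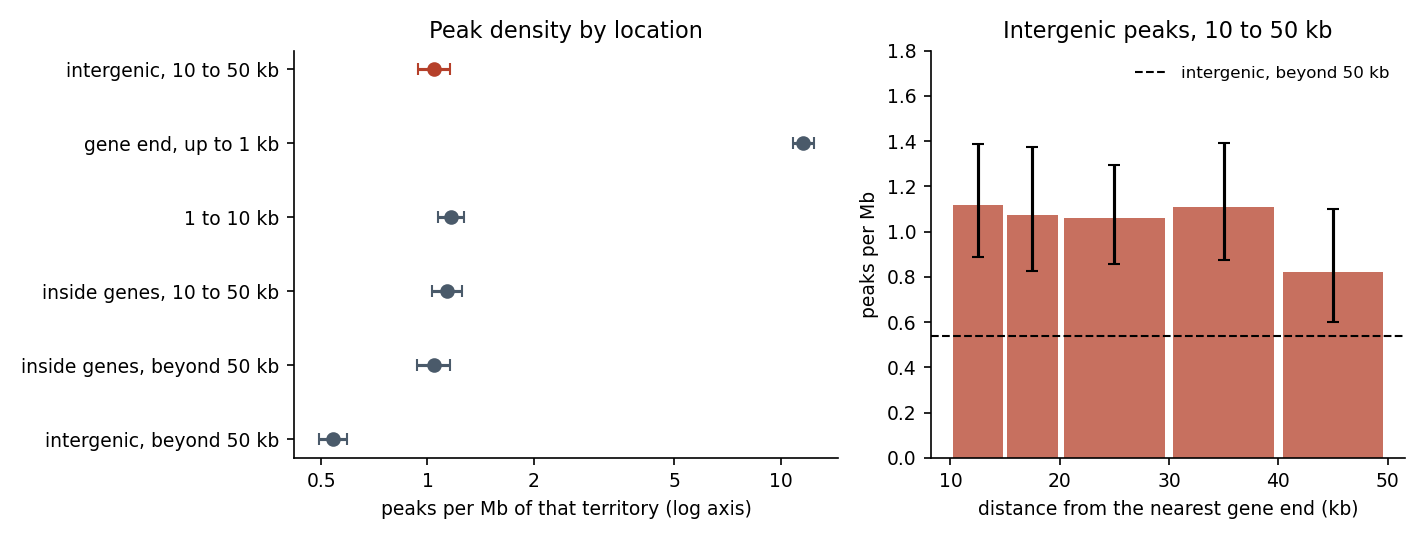
Peaks per Mb of territory by location (left, log axis) and, for the intergenic peaks 10 to 50 kb from genes, by distance from the nearest gene end (right); points and bars are counts over territory and error bars are exact 95% Poisson intervals. The band holds 1.05 peaks per Mb and each of its 5 distance bins stands above the dashed line at 0.540 per Mb, the intergenic space beyond 50 kb.

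Peaks lay before gene starts and past gene ends in proportion to the territory there. The strand of the nearest gene stood in the promoter table for 279 of the 361 peaks. Of these, 154 were nearest to a gene's start (55.2%, Wilson interval 49.3 to 60.9%), where 55.0% of the territory of genes with a strand lay. The density was 1.04 per Mb (0.879 to 1.21) before starts and 1.03 (0.857 to 1.23) past the far ends, a ratio of 1.01. A fold of 10 or more was reached by 18 of the 154 peaks before starts (11.7%) and by 9 of the 125 past the far ends (7.20%).

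The median strength was close to that of peaks elsewhere. The median fold was 7.40 (exact order-statistic interval 7.08 to 7.59) for the 361 intergenic peaks and 7.35 (7.08 to 7.40) for the 2597 other autosomal peaks. The median pileup was 15 fragments in both sets. A fold of 10 or more was reached by 38 of the 361 (10.5%, Wilson interval 7.77 to 14.1%), against 390 of the 2597 others (15.02%, 13.7 to 16.4%), where the background over all autosomal peaks was 14.5%. The share lay below the background and its interval ended just under it, while the intervals of the 2 sets overlapped. With all annotated genes in place of protein-coding genes in the rule, the share was 14.03% (10.7 to 18.2%), close to the background. Among intragenic peaks 10 to 50 kb from gene ends 71 of 407 (17.4%, 14.1 to 21.4%) reached that fold, and among intergenic peaks beyond 50 kb 75 of 453 (16.6%, 13.4 to 20.3%). Peaks are not replicates and a fold carries the counting error of few fragments, so none of these differences was tested. Fold and distance were unrelated within the set in the description that a rank correlation gives (Spearman's coefficient −0.0232 over 361 peaks of 1 library).

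**Figure D2:**
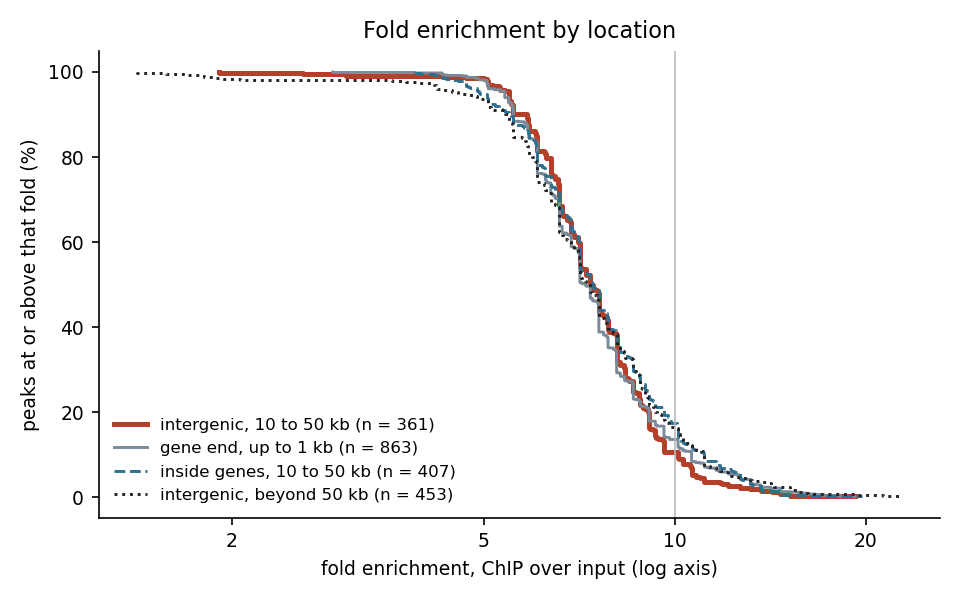
Share of peaks (percent, vertical axis) at or above a fold enrichment (horizontal log axis) for the intergenic peaks 10 to 50 kb from genes and 3 other locations. The curves run together around the median, and at 10-fold (vertical line) the intergenic peaks 10 to 50 kb away stand at 10.5%, against 13.6% at gene ends, 17.4% inside genes and 16.6% beyond 50 kb.

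The strongest peaks of the set lay nearest to Ncam1, Errfi1, Gm52030, Nav1 and Dbx1. Ncam1, which encodes a neural cell adhesion molecule that is also a surface marker of muscle stem cells, had 37 ChIP fragments over a scaled input background of 0.977 at chr9:49827585-49827962. Its fold of 19.2 (13.7 to 26.3) was the highest of the set, and the next protein-coding gene, Ttc12, was 341517 bp away. Errfi1, which encodes a feedback inhibitor of the EGF receptor, had 29 fragments over 0.977 and 15.2-fold (10.3 to 21.6) at chr4:150827425-150827691, 26235 bp before its start. The same values were read near the predicted gene Gm52030, at chr13:99100384-99100758. Nav1, a microtubule-associated neuron navigator, had 28 fragments over 0.977 (14.7-fold, 9.92 to 21.0) 10703 bp before its start, with Csrp1 at 21010 bp on the other side. Dbx1, a homeobox gene, had 28 over 1.04 (14.2-fold, 9.61 to 20.3) at chr7:49668288-49668694, 31696 bp before its start. All these intervals lay above the median of 7.40, but the peaks were picked by these same folds.

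The rest of the leading 12 had pileups from 23 to 26 and folds from 11.9 to 13.7. They lay nearest to the predicted gene Gm30733, to Galnt15, which encodes a glycosyltransferase, to Rit2, a small GTPase gene, and to Prrx1, a paired-related homeobox gene. Trio, a guanine nucleotide exchange factor gene, Lbh, a transcription cofactor gene, and Ptprz1, a receptor tyrosine phosphatase gene, completed them. The Ptprz1 peak, at 11.9-fold (7.71 to 17.6), was near the outer limit at 49617 bp, and the Galnt15 peak was the widest of the set at 818 bp. The second widest, 735 bp, lay 30003 bp from Lmo2, which encodes a LIM-only transcription cofactor, at 9.42-fold (6.37 to 13.5). All 12 rested on an input background between 0.977 and 1.04 fragments, at or next to the floor that the caller sets, so their folds follow the ChIP pileup. Of all 361 peaks, 155 were at that floor (42.9%, 37.9 to 48.1%), against 1148 of the 2597 other peaks (44.2%, 42.3 to 46.1%).

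**Figure D3:**
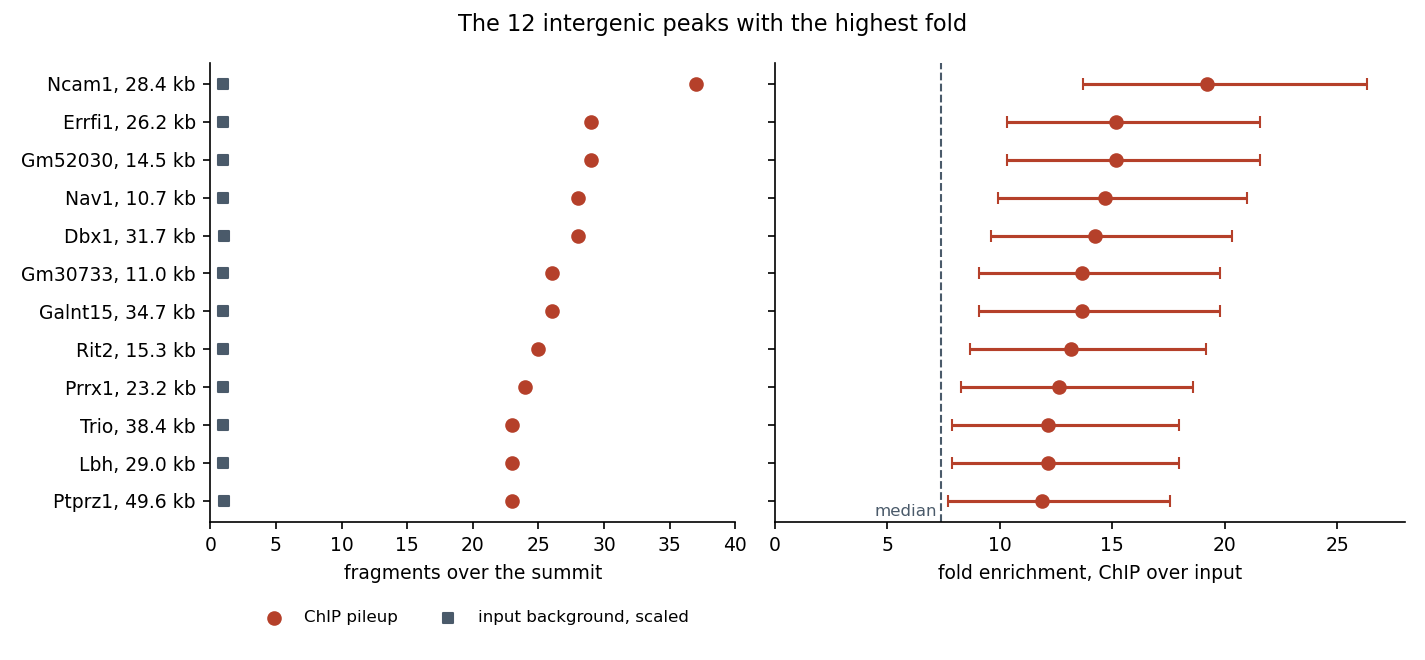
ChIP pileup and scaled input background in fragments (left) and fold enrichment with exact 95% Poisson interval (right) of the 12 intergenic peaks with the highest folds, named by the nearest protein-coding gene and its distance. Pileups run from 37 at Ncam1 to 23. The background stays near 1 fragment, at or next to the floor that the caller sets, so it is not a reading of the input itself. Every interval lies above the median fold of the set (dashed line, 7.40), but the peaks were picked by these same folds.

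Most genes had a single such peak, and a few had groups of them. The 361 peaks were nearest to 313 genes, of which 276 had 1 peak, 26 had 2 and 11 had 3. For 145 peaks (40.2%, 35.2 to 45.3%) the same gene was nearest to another peak within 50 kb, close to the 40.3% (35.6 to 45.1%) of intragenic peaks 10 to 50 kb from gene ends. The share was 28.04% for intergenic peaks beyond 50 kb, 33.9% for peaks at 1 to 10 kb and 27.9% over all autosomal peaks. A gene-end peak, at most 1000 bp away, was also present at 25 of the 313 genes (7.99%), against 4.01% of the 11859 genes that own territory in the band. Trio, Osbpl8, Spsb1, Odc1, Mat2a, Rad51b and Spred1 were among these 25, named after their values were seen. Another summit lay within 10 kb of 67 of the 361 peaks (18.6%, 14.9 to 22.9%), against 365 of the 2597 others (14.1%, 12.8 to 15.4%). By location it was 20.7% for peaks at 1 to 10 kb and 17.2% for intergenic peaks beyond 50 kb. For intragenic peaks 10 to 50 kb from gene ends it was 15.2%, and for gene-end peaks 8.11%.

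There were 6 groups of 3 neighbouring peaks with summits at most 10 kb apart. Past the far end of Prrx1, 3 peaks stood within 2400 bp, with 24, 15 and 16 ChIP fragments and folds of 12.6 (8.28 to 18.6), 7.40 (4.34 to 11.9) and 8.60 (5.13 to 13.6). Past the far end of Ackr3, which encodes a scavenger receptor for the chemokine CXCL12, 3 peaks spread over 4602 bp had folds of 5.88, 9.10 and 8.09. Before the start of Sgk1, a kinase gene induced by serum and glucocorticoids, the folds were 7.42, 6.47 and 8.46, over 5593 bp and all inside the lncRNA gene Platr6. Nfkb1, which encodes the p105 and p50 subunit of NF-kappaB, had 7.84, 9.31 and 5.08 over 3904 bp, besides 2 peaks inside the gene. Hint1, a nucleotide hydrolase gene, had 6.64, 10.5 and 7.84 over 3808 bp, with Lyrm7 or Gpx3 as the second gene at 17787 to 20338 bp. Bcas1, known from amplified regions in breast cancer, had 5.88, 7.59 and 9.61 over 14020 bp. Within each group the Poisson intervals overlapped, and whether neighbours are 1 enriched region was not tested.

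Of the 11 genes with 3 peaks, the other 5 were Ncam1, Gm52030, Gm46353, N6amt1 and Odc1. The 3 Ncam1 peaks lay 14891, 17391 and 28399 bp outside the gene, with 11, 21 and 37 fragments and folds of 6.07 (3.28 to 10.5), 10.6 (6.75 to 16.0) and 19.2 (13.7 to 26.3). The farthest of them was thus the strongest, and its interval did not overlap that of the nearest. Tnfaip3, which encodes the ubiquitin-editing inhibitor A20 of NF-kappaB, had a peak on each side, 10.1-fold (6.29 to 15.5) past its far end and 7.08-fold (4.01 to 11.8) before its start. Has2, the gene of a hyaluronan synthase, had 11.1-fold (7.13 to 16.5) and 6.07-fold (3.28 to 10.5) at 32152 and 31325 bp.

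**Figure D4:**
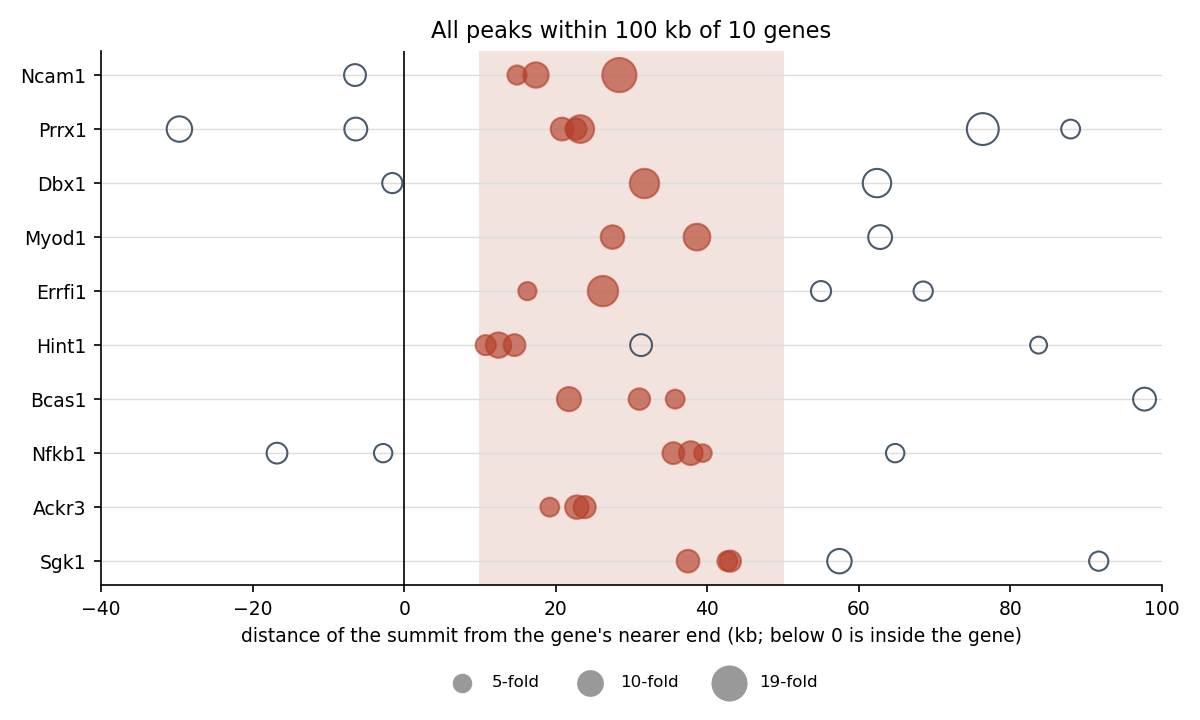
All autosomal peaks within 100 kb of 10 genes, placed by the distance of the summit from the gene's nearer end in kb (below 0 is inside the gene); filled circles are intergenic peaks 10 to 50 kb from the nearest gene, also where that is a neighbour of the named gene, open circles other peaks, and circle area is proportional to fold enrichment. At Prrx1, Ackr3 and Hint1 the 3 filled circles lie within 5 kb of each other, and at Ncam1 the largest, 19.2-fold, is the farthest out.

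Ncam1, Dbx1 and Msc had the highest folds among the genes of the list named muscle stem cell. In that list 7 of the 32 genes with territory in the band had a peak (21.9%), where the background over all 11859 genes was 2.64%. Counted per territory, the list held 9 peaks in 1.33 Mb, 6.78 per Mb (3.10 to 12.9), against 1.05 per Mb for all genes. Of the 9 peaks 3 were those of Ncam1, which the interval counts as separate events. All 22 lists together had 34 of 461 genes (7.38%) and 2.04 peaks per Mb (1.44 to 2.80), so the listed genes as a whole also stood above all genes. The genes were Ncam1, Dbx1, Msc at 10.3-fold (6.48 to 15.6), Musk at 8.82-fold (5.35 to 13.8), Edn3 at 7.72-fold, Chrdl2 at 6.07-fold and Notch3 at 5.52-fold (3.29 to 8.76). Msc encodes musculin, a repressor of MyoD activity, Musk the receptor kinase of the neuromuscular junction, and Chrdl2 a BMP antagonist. All lists were drawn up with earlier results of these data known, so these counts are no independent evidence.

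Among genes that regulate transcription, 5 of 27 muscle cofactors and MyoD inhibitors with territory had a peak (18.5%), or 3.36 per Mb (1.09 to 7.84). Besides Msc they were Tead1, an effector of Hippo signalling, at 9.10-fold (5.51 to 14.3), the repressor gene Bhlhe40 at 8.09-fold (4.75 to 13.02), the E-protein gene Tcf12 at 6.41-fold and Zeb1 at 5.47-fold. In the homeobox and paired box list 4 of 38 genes (10.5%) held 6 peaks, or 2.70 per Mb (0.993 to 5.89). These genes included Dbx1, Prrx1 and Six2, the last at 8.09-fold (4.75 to 13.02). The Six2 peak was 16776 bp past its far end and 19769 bp from Six3, so its assignment rests on a small difference in distance.

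Myod1, the gene of the myogenic determination factor, was the only gene nearest to such a peak among the 20 myogenic regulators and differentiation genes with territory. That is 5%, against 2.64% of all genes with territory in the band. The density of the list, 2.04 per Mb (0.0517 to 11.4), had an interval that spans the 1.05 of all genes. The Myod1 peak had 17 fragments over 0.977 and 9.10-fold (5.51 to 14.3) at chr7:46348843-46349147, 27492 bp from Myod1 and 37548 bp from Otog. A neighbour with 23 fragments over 1.04 and 11.8-fold (7.64 to 17.4), at chr7:46337598-46337939, stood on the side of Otog, an inner ear gene, 26395 bp from it and 38645 bp from Myod1. Both lie in the same gap of 65039 bp between these genes, and the rule divides them between the 2 genes by distance alone.

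In the extracellular matrix and adhesion list 5 of 38 genes (13.2%) had a peak, 4.06 per Mb (1.63 to 8.36). Beside Ncam1 they were the collagen gene Col1a1 at 9.31-fold (5.72 to 14.4), the endothelial cadherin gene Cdh5 at 8.33-fold (4.97 to 13.2), and the laminin genes Lama2 at 7.59-fold and Lama4 at 6.22-fold. Of these 7 peaks 3 were those of Ncam1, which stands in the muscle stem cell list too.

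The signalling lists held 1 to 3 peaks each, with intervals that reached from below the value of all genes to far above it. Igf1, a growth factor gene, had 9.33-fold (5.87 to 14.2), Smad6, an inhibitor of BMP signalling, 9.13-fold (5.87 to 13.6), and Bmp4, a BMP ligand gene, 8.09-fold. The Wnt co-receptor gene Lrp6 had 8.60-fold and the antagonist gene Dkk2 6.47-fold. Spred1, an inhibitor of Ras signalling, had 6.66-fold, and Notch3 was the only receptor, ligand or cofactor gene of the Notch list. In the calcium and cAMP list Nfatc2, a calcineurin-regulated factor, had 8.60-fold, and the phosphodiesterase genes Pde4b and Pde10a 7.84-fold and 6.47-fold. The Hedgehog co-receptor gene Cdon had 18 fragments over 1.56 and 7.42-fold (4.56 to 11.5), 49069 bp before its start.

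Immediate early genes had 1 of 25 (4%), Socs3, a feedback inhibitor of cytokine signalling, at 10.6-fold (6.69 to 16.1) and 33623 bp past its far end. Counting peaks of any location within 50 kb, 14 of the 32 autosomal genes of that list were nearest to one. Over all autosomal protein-coding genes it was 1819 of 20558. Of the immediate early genes Socs3 alone had its peak in the band. The clock and metabolism list had Arntl, a core clock gene, at 9.10-fold besides Bhlhe40. Chromatin regulators had Hdac4 alone, at 5.06-fold (2.59 to 9.15).

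The lists of markers of other cell types held 0 or 1 gene with a peak each. The antibody recognises the tag, so these counts do not measure the purity of the sort. The genes were Cdh5 of 13 endothelial genes with territory and Notch3 of 11 smooth muscle, pericyte and Schwann genes. Of 22 fibro-adipogenic genes it was Ebf2, an adipogenic factor gene, at 5.55-fold. Leukocyte markers had 0 of 12, with an exact 95% Poisson upper limit of 21.7 peaks per Mb of their small territory. In the control lists, hepatocyte genes had 0 of 16, with a limit of 8.06 per Mb. Ribosomal and housekeeping genes, also a control, had 0 of 10, with a limit of 15.8. The control list of neuronal synapse genes had 1 of 18, namely Snap25, 5.47-fold enriched. Cell cycle genes, a list of neither kind, had 0 of 19, with a limit of 5.63 per Mb. At this number of peaks a list at the level of all genes could not be told from one without peaks.

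**Figure D5:**
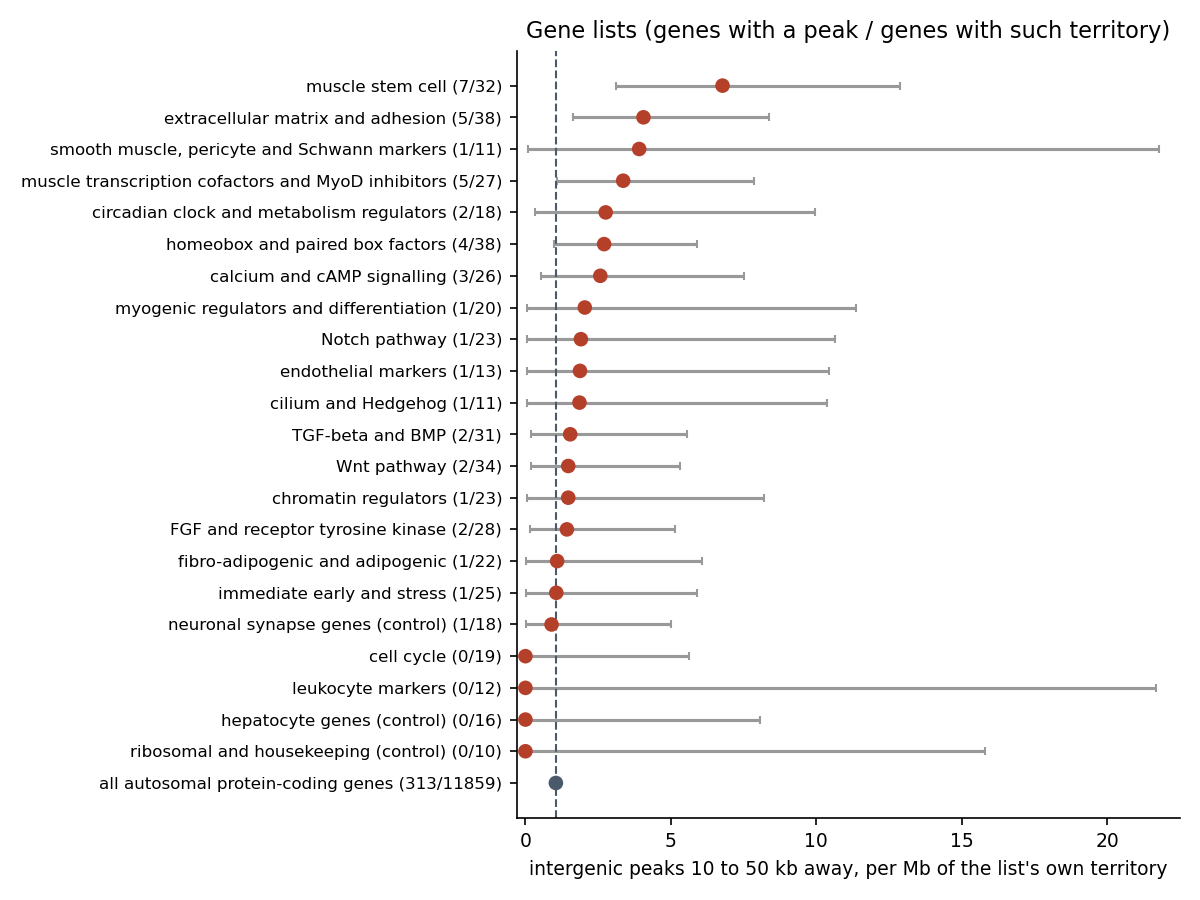
Intergenic peaks 10 to 50 kb away per Mb of the territory nearest to the genes of each list, with exact 95% Poisson intervals; numbers after each name are genes with such a peak and genes with territory in the band. The muscle stem cell list (6.78 per Mb) and the matrix and adhesion list (4.06) have intervals wholly above the dashed line. That line is the 1.05 per Mb of all autosomal protein-coding genes. The 3 Ncam1 peaks count in both lists, as separate events, and neither density was computed without them. The interval of the cofactor list (from 1.09) lies only just above the line, and the other intervals span it.

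Long noncoding genes overlapped more than 1 in 5 of these peaks. Inside the span of a noncoding gene lay 81 of the 361 peaks (22.4%, 18.4 to 27.0%), 80 of them in lncRNA genes and 1 in a pseudogene. The share was about the same for intergenic peaks beyond 50 kb, 106 of 453 (23.4%, 19.7 to 27.5%). Over all autosomal peaks it was 369 of 2958 (12.5%, 11.3 to 13.7%). Noncoding spans covered 17.0% of the band, so the density was 1.38 per Mb (1.10 to 1.72) inside them, against 0.978 (0.867 to 1.10) outside any gene. The intervals overlapped at their ends, and no test of the difference was made. The median fold was 7.35 (6.64 to 7.81) for the 81 and 7.42 (7.08 to 7.59) for the 280 others. The gaps between protein-coding genes that held these peaks had a median length of 114.7 kb, from 20.8 kb to 1453 kb. A second gene within 50 kb was present for 140 peaks (38.8%), and for 132 (36.6%) that gene was less than 2 times as far as the nearest.

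Across chromosomes the density ran from 0.377 per Mb (0.138 to 0.820) on chromosome 14, with 6 peaks, to 2.08 (1.42 to 2.93) on chromosome 12, with 32. Chromosome 12 also had the highest share of its own peaks in the band, 21.2% (15.4 to 28.4%). Chromosome 7 had the second lowest density, 0.563 (0.315 to 0.928), although its density of all peaks was 1.31 per Mb, above the 1.23 of all autosomes.

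A few peaks had high coverage in both libraries. The peak nearest to Rpusd4, 298 fragments over a background of 155, had the lowest fold of the set, 1.91 (1.70 to 2.14). Those nearest to Csf2ra and Apbb1ip had 42 over 15.6 and 43 over 13.5, with folds of 2.59 and 3.03. At the inner limit the peaks of Asb4 (10049 bp, 7.08-fold) and Musk (10076 bp, 8.82-fold) were just inside, and those of Timp2 (9973 bp, 5.86-fold) and Cln6 (9853 bp, 6.07-fold) just outside. At the outer limit Prox1 (49841 bp, 8.33-fold) and Marchf10 (49806 bp, 7.81-fold) were just inside, and Efcab11 (51104 bp, 8.82-fold) and Nfatc1 (51150 bp, 6.37-fold) just outside.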

How the data were processed

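GRCm38, bcl2fastq, HISAT2 and MACS2 are named in the submitters' processing notes, without roles. The authors called peaks (MACS 2.1.1.20160309, q-value limit 0.01) on 1 ChIP library against 1 input library, per the file headers. Tags were 50 bp, fragments were set to 172 bp and the input was scaled to the ChIP depth, per the file headers. At most 1 tag per position was allowed, per the file headers. Pileup was deposited as a coverage signal and fold enrichment as a ratio, and −log10 values of the p-value and of the q-value were deposited too. The local background was recovered as (pileup + 1) over the fold, minus 1.

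Genes were taken from a RefSeq table of GRCm38.p6. Genes off the assembled chromosomes 1 to 19, X and Y (402) were not used, which left 21774 that code for protein. Distances ran from the summit to either gene end. Territory was the length of intergenic sequence in the band between the first and last annotated base of each chromosome. The strand came from the promoter table, and 19 peaks off chromosomes 1 to 19 were not used. Motifs in all peaks, with their window alternative, were not run without a genome and were searched only in promoter windows. The tools were Python 3.11.15, numpy 2.4.6, pandas 2.3.3, scipy 1.17.1 and matplotlib 3.10.9. Distances, territory and intervals were tested on simulated data.

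No test was made between libraries or peaks. Named genes are those nearest to the 12 highest folds, up to 4 per list, the 5 with most peaks (11 tied at 3), the extremes of distance, width and background, the groups of 3, and Ncam1, Socs3, Myod1 and Cdon. Tnfaip3, Has2, Apbb1ip, Otog, the further genes of lists with more than 4, and the named genes with a gene-end peak were chosen after their values were seen. The set, the 22 lists and the named genes were chosen with earlier results of these data known. The orientation, the noncoding territory and the promoter windows were added after the files were seen. Alternatives were a stricter q, leaving out high pileup or background, merging neighbours, the midpoint or whole peak for the summit, all annotated genes, and limits of 5000 to 50000 or 10000 to 100000 bp.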

Additional observations from a re-analysis of the deposited data

How the results depend on the processing

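Of 81 values (9 results under 9 alternatives), 68 stayed within the 95% interval of the reported value or, for the number of genes, within 1.5 times of it. The other 13 follow. When peaks under the overall median of −log10 q were dropped, which keeps high pileups by construction, the median fold was 8.60, the share of peaks at 10-fold or more 20.4% and the share at the background floor 51.1%. The number of nearest genes was then 169, the share with another peak within 10 kb 13.98%, and the share whose gene has another peak 29.0%. Merging neighbours gave 0% and 29.5% for those last 2 shares, the 0% by construction. With all annotated genes in the rule, the density ratio to all peaks was 0.592, the share whose gene has another peak 30.4% and the share inside or within 1000 bp of noncoding genes 0%, again by construction. The band made up 15.2% of peaks from 5000 bp and 17.4% up to 100000 bp. Motif counts around summits were not run. No paired analysis was possible because each group had 1 library. Depth limits every single fold, since a median of 15 fragments leaves intervals of the kind given above, and 1 library a group allows no statement on variation between animals.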
